A study of Mus musculus with 8 samples.

Results

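The miR-15/16 seed family was measured in basal progenitors of the mouse cortex at embryonic days 13 and 16 (E13 and E16). All 7 family members named on the array were taken, listed there as mmu-miR-15a, mmu-miR-15b, mmu-miR-16, mmu-miR-195, mmu-miR-497, mmu-miR-322 and mmu-miR-503, by matching the miRNA name of every non-control probe. They had 14 probes and 140 spots per array, of 1759 mouse probes for 611 mouse miRNAs. Basal progenitors, the dividing cells that leave the ventricular surface of the embryonic cortex, had been sorted by FACS from cortex at each stage, and their total RNA was labelled with cyanine-3. Each stage had 4 arrays, described as biological replicates from cortices of 3 litters, so some replicates of a stage share a litter and the p-values may be too small for that reason. All 8 samples carry the letters WT in their labels, and the sources used here give no strain, treatment or sorting gate.

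A miRNA pairs with messenger RNAs through its seed, bases 2 to 8 counted from the 5′ end, so miRNAs with 1 seed can act on overlapping sets of targets. The miR-15/16 family is encoded in small clusters, each transcribed as a shared primary transcript and then cut into separate hairpins, and it is known for repressing messenger RNAs of the cell cycle and of survival, among them cyclins and Bcl2. Cell-cycle length and exit govern how many neurons basal progenitors produce. The members of the family share a seed or nearly so but not a gene, and the levels of the mature miRNAs can differ from locus to locus.

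The mature sequences, from RefSeq with the GRCm38.p6 assembly, show what the members share and where they part. All 7 members matched a RefSeq entry. Seed bases are in capitals.
miR-15a: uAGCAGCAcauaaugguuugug
miR-15b: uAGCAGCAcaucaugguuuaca
miR-16: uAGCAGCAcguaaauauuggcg
miR-195: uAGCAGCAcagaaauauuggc
miR-497: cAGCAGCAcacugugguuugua
miR-322: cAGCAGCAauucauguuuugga
miR-503: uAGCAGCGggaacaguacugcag
The seed AGCAGCA was common to 6 of the 7, and miR-503 carried AGCAGCG. The closest pair was miR-16 and miR-195, encoded on different chromosomes, with 19 of 21 aligned bases identical over the whole length and 11 of 13 after the seed. The partners within the chromosome 11 cluster were less alike, since miR-195 and miR-497 matched at 12 of 21 bases over the whole length, and on chromosome X miR-322 and miR-503 matched at 11 of 22.

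The file headers place the probes on mm9 at 4 loci. The probe of miR-15a lay at chr14:62250879-62250899 and that of miR-16 at chr14:62250736-62250753, with 125 bases between them, and in the RefSeq annotation both genes lie within the long non-coding RNA Dleu2. A second copy of miR-16 lay on chromosome 3 at chr3:68813844-68813861, with 125 bases between it and miR-15b at chr3:68813700-68813718. Both of those genes lie within Smc4, which encodes a condensin subunit. miR-497 at chr11:70048235-70048253 and miR-195 at chr11:70048567-70048584 were separated by 313 bases, next to 0610010K14Rik. miR-503 at chrX:50407174-50407188 and miR-322 at chrX:50407455-50407475 were separated by 266 bases, within the non-coding gene C430049B03Rik. The 2 genes of miR-16 give the same mature miRNA, so the array cannot divide its signal between chromosomes 14 and 3.

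The arrays differed in brightness. The 75th percentile of the processed signal, over 126 probes well above background on all 8 arrays, lay between 162 and 490 on the E13 arrays and between 109 and 748 on the E16 arrays. The scanner's flag "well above background" was held by 119 to 206 miRNAs per E13 array and 76 to 170 per E16 array. E16 replicate 4 was the dimmest array, with 3 members above background, and E13 replicate 3 detected all 7. The arrays lay on 3 slides, and every E13 array was in the second row of its slide and every E16 array in the first, so the row on the slide and the stage cannot be told apart. miR-9 and miR-9*, expressed by neural progenitors and by neurons, were detected in this sense on each of the 8 arrays. None of 2 endothelial, 2 mural and 6 blood-cell miRNAs was above background on any array. Of 5 neuronal miRNAs, all 5 were detected at E13 and 4 at E16. No miRNA that would tell basal progenitors from other neural cells was tested.

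The 2 miRNAs of the chromosome 11 locus, miR-195 and miR-497, were called higher at E16, and the bright members from chromosomes 14 and 3 did not pass the test. The fitted difference was 2.89-fold for miR-195 and 3.67-fold for miR-497. At E13 each was well above background on 1 array and set to a lower limit, the floor, on 3. The sizes are therefore not exact and the p-values may be too small. miR-15a, miR-15b, miR-16 and miR-322 had fitted log2 differences between -0.40 and 0.32. miR-503 was above background on 1 array and was not tested. Signals were divided by the 75th percentile of their array and put on a log2 scale, called the log2 scaled signal here, and stages were compared with limma over 153 miRNAs at an adjusted p threshold of 0.05. Of the 6 tested members, 2 were called, both higher at E16. Of all 153 miRNAs, 33.3% were called in either direction, 7.19% as higher at E16 and 26.1% as lower. The median log2 difference was 0.31 over the 6 members and -0.40 over all tested miRNAs. In bulk RNA of a sorted population, fewer cells holding a miRNA and less of it per cell cannot be told apart.

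**Figure D1:**
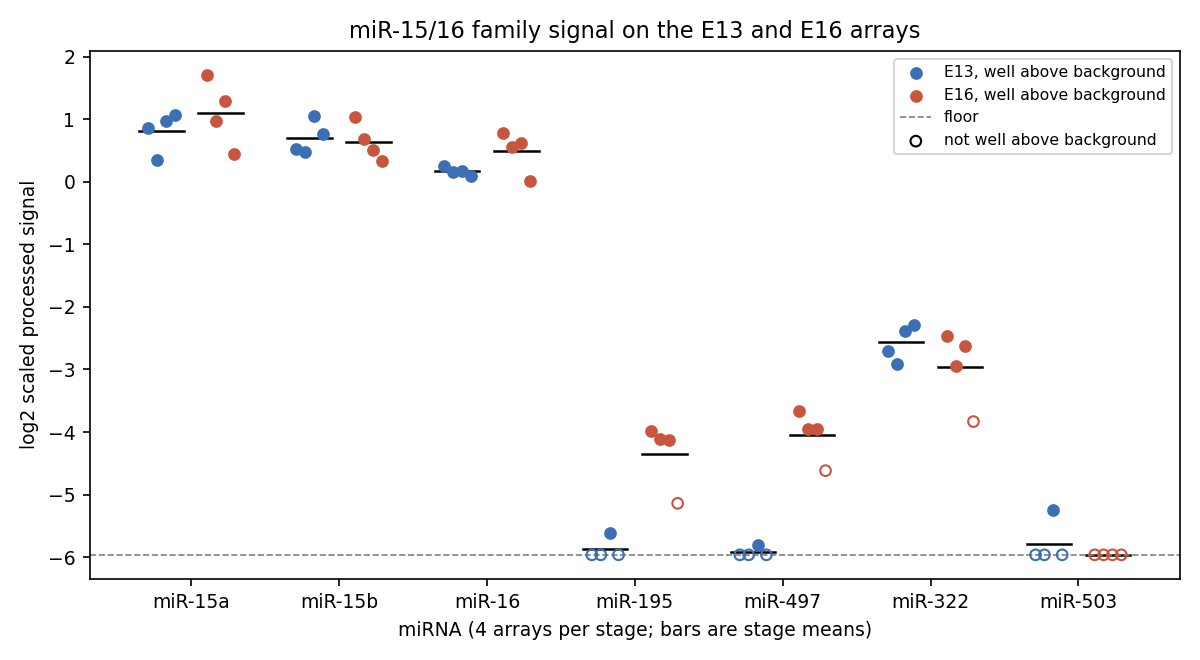
The log2 scaled signal (vertical axis) of each of the 7 members on the 4 E13 and 4 E16 arrays, with bars at stage means, open circles where the probe was not well above background and a dashed line at the floor of -5.96. miR-195 and miR-497 lay at or just above the floor at E13 and between -5.14 and -3.66 at E16, whereas the stages overlapped for miR-15a, miR-15b, miR-16 and miR-322.

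The chromosome 11 locus came closest to the limit of the arrays. miR-195 had an unscaled processed signal of 1.77, 3.91, 10 and 3.89 on E13 replicates 1 to 4 and of 38.3, 43.1, 16.1 and 3.08 on E16 replicates 1 to 4. miR-497 had 2.59, 3.93, 8.73 and 4.64 at E13 and 48.1, 48.2, 18.1 and 4.43 at E16. E16 replicates 1 to 3 were brighter than every E13 array for both miRNAs, and E16 replicate 4 was as dim as the E13 arrays before scaling. Each miRNA was well above background on 1 E13 array, replicate 3, and on 3 E16 arrays, all but replicate 4.

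After scaling, miR-195 was at the floor on 3 E13 arrays and at -5.62 on replicate 3, against -3.99, -4.12, -4.13 and -5.14 on the E16 arrays. miR-497 was at the floor on the same 3 arrays and at -5.81 on replicate 3, against -3.66, -3.96, -3.96 and -4.62 at E16. The stages did not overlap for either miRNA, which also held for 38.6% of all tested miRNAs. That includes E16 replicate 4, where neither miRNA was above background, against 3 E13 arrays at the floor. The order of those values is not supported. The log2 difference was 1.53 for miR-195 (SE 0.26, 95% interval 0.94 to 2.13, limma adjusted p = 0.00158, n = 4 per stage). It was 1.88 for miR-497 (SE 0.21, 95% interval 1.40 to 2.35, limma adjusted p = 0.000106, n = 4 per stage). Both calls held with any 1 array left out. Both miRNAs passed the filter of at least 4 arrays through 1 E13 array and 3 E16 arrays. Because 3 of the 4 E13 values of each are at the floor, the sizes are not exact. The floor also narrows the E13 spread (SD 0.17 for miR-195 and 0.075 for miR-497). The SEs, intervals and p-values may therefore be too small, also with 1 array left out. With normexp, which added an offset of 50 before quantile normalization, the differences shrank to 0.39 and 0.46, still called. An offset of that size by itself shrinks log2 differences of signals this dim. Both miRNAs lost the call when the scanner's total signal per miRNA replaced the brightest probe. The difference was then 1.70 for miR-195 (limma adjusted p = 0.076) and 1.98 for miR-497 (limma adjusted p = 0.057).

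The arrays differ in how dim a probe they can detect. The lowest log2 scaled signal of any detected probe was -4.10, -4.90, -6.04 and -4.64 on E13 replicates 1 to 4. Each such limit is set by a single probe, so another probe above it need not have been detected on that array. miR-497 on E16 replicates 1 to 3 lay above all 4 of these limits. miR-195 on E16 replicates 2 and 3, at -4.12 and -4.13, lay just under the limit of E13 replicate 1 and above the other 3. E16 replicate 4 had the highest limit, -3.53, above its own values of both miRNAs.

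Within slide 2, with 2 arrays of each stage, the log2 differences were 1.84 for miR-195 and 2.004 for miR-497, each with limma adjusted p = 0.0041. Both miRNAs were at the floor on both E13 arrays of that slide, replicates 1 and 2. The E13 spread there is set by the floor, so these p-values do not measure it. Within slide 3 the only E16 array was replicate 4, on which neither miRNA was above background, so its differences of 0.65 for miR-195 and 1.27 for miR-497 are given as values with no test. Slide 1 held 1 array, so it gives no difference. With slide as a block, both calls were kept, at 1.36 and 1.71. That fit pools the differences within slides 2 and 3 and is not a separate test of them.

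Endothelial and mural cells of the brain are sources that a sort can carry along. The summed unscaled signal of the 2 endothelial miRNAs, miR-126-3p and miR-126-5p, lay between 0.489 and 3.38 at E13 and between -0.840 and 4.54 at E16, all near 0. That of the 2 mural miRNAs, miR-143 and miR-145, lay between -3.54 and -1.28 at E13 and between -3.06 and -1.74 at E16. That of the 6 blood-cell miRNAs lay between -2.06 and 1.60 at E13 and between -0.983 and 2.61 at E16, and each of these 10 markers was below detection on all 8 arrays. The 5 neuronal miRNAs summed to 204 to 628 at E13 and to 50.8 to 1057 at E16. Of these 5, miR-7a and miR-153 fell and miR-124, miR-128 and miR-129-3p did not pass the test. The part of endothelial, mural or blood cells, or of neurons, in the chromosome 11 result was not tested.

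**Figure D2:**
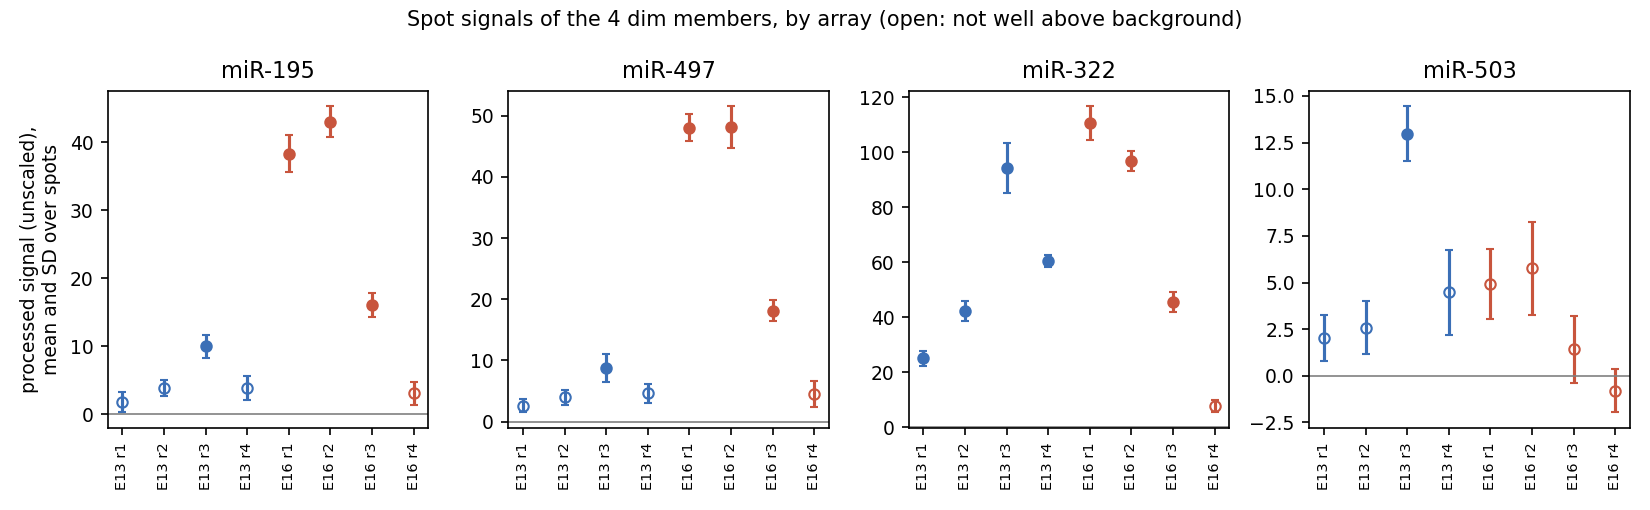
Unscaled processed signal (vertical axis, mean and SD over the spots of the brightest probe) of the 4 dim members on each array, filled where well above background, blue for E13 and red for E16. For miR-195 and miR-497 the E16 replicates 1 to 3 stand above all E13 arrays, E16 replicate 4 does not, and for miR-503 only E13 replicate 3, at 12.97, was above background.

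How far the probes could mix the members is set by their sequence. Agilent miRNA probes are complementary to the 3′ part of the miRNA, where members differ most, and reach a varying distance into the seed. The brightest probes of miR-16 and miR-195 are the closest pair and are shown because the miR-195 result rests on them. Capitals mark the bases opposite the seed.
miR-16 probe: cgccaatatttacgTGCT
miR-195 probe: gccaatatttctgTGCTGC
The miR-195 probe had 2 mismatches against miR-16 and the miR-16 probe had 3 against miR-195, counted at the same positions of the miRNA. The miR-497 probe was farther from the bright members, with 4 mismatches against miR-15a, 5 against miR-15b and 10 against miR-16. A second, shorter probe of miR-195 was at the floor on all 8 arrays. That of miR-497 was at the floor on 5 arrays and gave a log2 difference of 0.31. It was well above background on E16 replicates 1 and 2 and on no E13 array. The calls of both miRNAs thus rest on 1 probe each.

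The signals of miR-195 and miR-497 were also read as a share of that of miR-16 on the same array. On E13 replicates 1 to 4 miR-195 was at 0.914%, 1.10%, 1.80% and 1.24%, and on E16 replicates 1 to 4 at 3.67%, 3.92%, 3.71% and 2.81%. miR-497 was at 1.34%, 1.11%, 1.57% and 1.48% at E13 and at 4.595%, 4.39%, 4.17% and 4.04% at E16. On the arrays where both were well above background, the E16 shares (replicates 1 to 3) were above that of E13 replicate 3 for each miRNA. The shares on the other 3 E13 arrays and on E16 replicate 4 come from signals that were not above background and support no order. Probes differ in how strongly they respond, so a share can be read between arrays and not as a ratio of molecules. How much miR-16 was bound by the miR-195 probe was not tested.

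**Figure D3:**
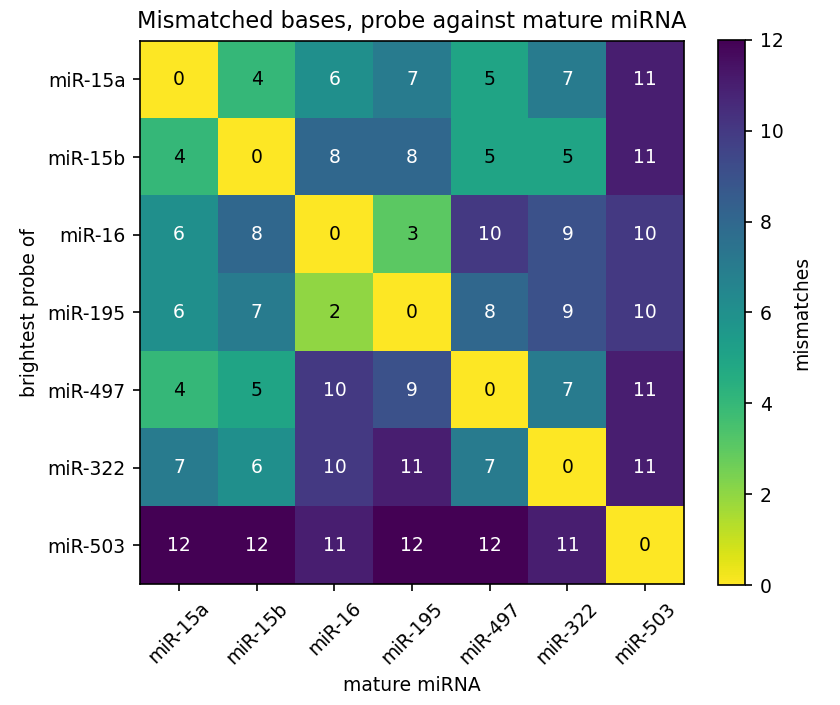
Number of mismatched bases between the brightest probe of each member (rows) and each mature member (columns), at the same positions of the miRNA. The smallest numbers off the diagonal are 2 and 3, between miR-195 and miR-16, and the probe of miR-503 has at least 11 against every other member.

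The cluster of miR-15a and miR-16 on chromosome 14 and that of miR-15b and miR-16 on chromosome 3 supplied the bright members, each well above background on all 8 arrays. miR-15a had log2 scaled signals of 0.85, 0.34, 0.98 and 1.06 on E13 replicates 1 to 4 and of 1.71, 0.97, 1.29 and 0.45 on E16 replicates 1 to 4. E16 replicate 1 was the highest and E13 replicate 2 the lowest, and the stages overlapped. The log2 difference was 0.30 (SE 0.28, 95% interval -0.35 to 0.94, limma adjusted p = 0.43, n = 4 per stage).

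miR-16 had log2 scaled signals of 0.26, 0.16, 0.18 and 0.09 at E13 and of 0.78, 0.55, 0.62 and 0.01 at E16. E16 replicates 1 to 3 were above all E13 arrays, and E16 replicate 4 was below them. The log2 difference was 0.32 (SE 0.19, 95% interval -0.10 to 0.74, limma adjusted p = 0.20, n = 4 per stage), and without E16 replicate 4 it was 0.48 and passed the threshold (limma adjusted p = 0.016). Within slide 2 it was 0.38, not called, and within slide 3, with 1 E16 array, it was -0.12.

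miR-15b had log2 scaled signals of 0.53, 0.48, 1.05 and 0.77 at E13 and of 1.04, 0.68, 0.51 and 0.33 at E16. The highest value came from E13 replicate 3 and the lowest from E16 replicate 4, with the stages mixed between them. The log2 difference was -0.07 (SE 0.21, 95% interval -0.53 to 0.40, limma adjusted p = 0.83, n = 4 per stage). The interval allows a change in either direction, and the sign turned within slide 2, at 0.092.

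Both probes of each bright member gave the same direction, with log2 differences of 0.32 and 0.30 for miR-15a, 0.29 and 0.32 for miR-16 and -0.10 and -0.07 for miR-15b. Spots of the brighter probe on 1 array varied by 1.58% to 13.2% (coefficient of variation) for these members. The opposite arms of the hairpins that were on the array, miR-15a*, miR-15b*, miR-16*, miR-322* and miR-503*, were below detection on all 8 arrays. They therefore give no second reading of each locus, and none that could divide miR-16 between its 2 genes.

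The chromosome X locus had 1 member that was well above background on 7 of the 8 arrays. miR-322, the mouse counterpart of human miR-424, had log2 scaled signals of -2.70, -2.91, -2.38 and -2.28 on E13 replicates 1 to 4 and of -2.46, -2.95, -2.63 and -3.83 on E16 replicates 1 to 4. It was well above background on all arrays except E16 replicate 4, the lowest value, and the other 3 E16 values lay within or just outside the E13 range. The log2 difference was -0.40 (SE 0.30, 95% interval -1.09 to 0.29, limma adjusted p = 0.32, n = 4 per stage), and -0.11 without E16 replicate 4. To 2 decimals it was also the median of all 153 tested miRNAs. Within slide 2 it was 0.017. Within slide 3, where that array is the only one of E16, it was -1.50, a value with no test.

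Its neighbour miR-503 was above background on E13 replicate 3 alone, with an unscaled processed signal of 12.97. On E13 replicates 1, 2 and 4 the signal was 2.03, 2.59 and 4.47, and on E16 replicates 1 to 4 it was 4.92, 5.77, 1.42 and -0.798. None of these 7 values was above background, and no fold change is given. Of 7 other miRNAs on the array from the same stretch of chromosome X, miR-542-3p and miR-542-5p were above background, each on E13 replicate 3 and E16 replicate 1, and miR-351 and the miR-450 miRNAs on no array.

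The scaling factor of an array cancels when 1 member is set against another on the same array and neither is at the floor. For miR-195 and miR-497 it does not cancel on 3 E13 arrays, where the value is the floor minus the reference. With the percentile over all mouse probes, their differences relative to miR-16 moved from 1.21 to 1.04 and from 1.56 to 1.33. Relative to miR-16, the chromosome 11 members were called higher at E16 and miR-322 lower, while miR-15a and miR-15b did not pass the test. Of the 5 other tested members, 3 were called, 2 higher and 1 lower. In the same fit 57.9% of 152 miRNAs were called, 5.26% as higher and 52.6% as lower, and the median over all of them was -0.72, so a member called lower than miR-16 shared that with the majority. Such a difference shows that 2 miRNAs changed unequally and not which of them changed. In all, 12 pairs were compared, with miR-16, miR-15a and miR-15b each as the reference, and p-values were adjusted over 152 miRNAs in each fit.

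The difference relative to miR-16 was 1.21 for miR-195 (SE 0.17, limma adjusted p = 0.00030) and 1.56 for miR-497 (SE 0.13, limma adjusted p = 1.3e-05). At E13 these values follow miR-16 on 3 arrays, since the miRNAs themselves were at the floor. Both calls were kept within slide 2, where both E13 arrays were at the floor. They were lost with normexp, at 0.18 and 0.25, and that of miR-195 also with the total signal, at 1.47 (limma adjusted p = 0.051). Relative to miR-15a the differences were 1.23 and 1.58, and relative to miR-15b they were 1.60 and 1.94. Of the 152 miRNAs, 45.4% were called against miR-15a, 4.61% as higher, and 32.2% against miR-15b, 8.55% as higher. The stages did not overlap for 43.4% against miR-15a and for 33.6% against miR-15b, nor did they for miR-195 and miR-497 against either. For these 2 miRNAs that again includes values not above background, on 3 E13 arrays and on E16 replicate 4. Against miR-15a, miR-195 lost its call in 3 of 20 alternatives, with normexp (0.29), the total signal (1.47) and the mean of all probes (0.46), and miR-497 in 1, with normexp (0.37). Against miR-15b neither lost its call in an alternative that gave it a value and had more than 1 array per stage. On 3 E13 arrays these values are the floor minus miR-15b. Alternatives that keep the floor reuse that E13 side and are not separate tests of it.

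miR-322 stood at 12.9%, 11.9%, 17.0% and 19.3% of the miR-16 signal on E13 replicates 1 to 4 and at 10.6%, 8.83%, 10.48% and 6.96% on E16 replicates 1 to 4. All E16 shares were below all E13 shares, and the stages were likewise without overlap for 46.1% of the 152 miRNAs. The log2 difference relative to miR-16 was -0.72 (SE 0.21, 95% interval -1.21 to -0.23, limma adjusted p = 0.018), which to 2 decimals is the median of all miRNAs in that fit. The call was lost without E13 replicate 3 (-0.66, limma adjusted p = 0.052), without E13 replicate 4 (-0.60, limma adjusted p = 0.056), within slide 2 (-0.36, limma adjusted p = 0.20), and with 3 of the other ways of scaling. Relative to miR-15a the difference was -0.70 (SE 0.16, limma adjusted p = 0.0065), against a median of -0.70 and 40.8% of miRNAs called lower, and it kept its call with any 1 array left out. That call was lost in 5 of 21 alternatives, with quantile normalization (-0.27), normexp (-0.17), the deposited table (-0.31), no filter on dim probes and within slide 2 (-0.52), with limma adjusted p from 0.083 to 0.88. Relative to miR-15b it was -0.33 (95% interval -0.85 to 0.19, limma adjusted p = 0.29), with a median of -0.33 and 23.7% called lower.

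The partners of the shared clusters did not pass the test against each other. miR-15a was at 151%, 113%, 174% and 196% of the miR-16 signal at E13 and at 190%, 133%, 159% and 135% at E16. The stages overlapped, and the log2 difference was -0.02 (95% interval -0.50 to 0.45, limma adjusted p = 0.93). miR-15b was at 121%, 124%, 183% and 160% at E13 and at 119%, 109%, 92.2% and 125% at E16. Its E16 shares tended to lie at or below the E13 shares, with an overlap at 125% on E16 replicate 4, and the log2 difference was -0.39 (95% interval -0.81 to 0.04, limma adjusted p = 0.10). With normexp it was -0.49 and called (limma adjusted p = 0.041), where miR-15b and miR-322 were the 2 members called, both lower. miR-15b relative to miR-15a differed by -0.36 (95% interval -0.84 to 0.11, limma adjusted p = 0.17). The intervals allow a difference between the chromosome 14 and chromosome 3 loci of about the size seen for miR-322.

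**Figure D4:**
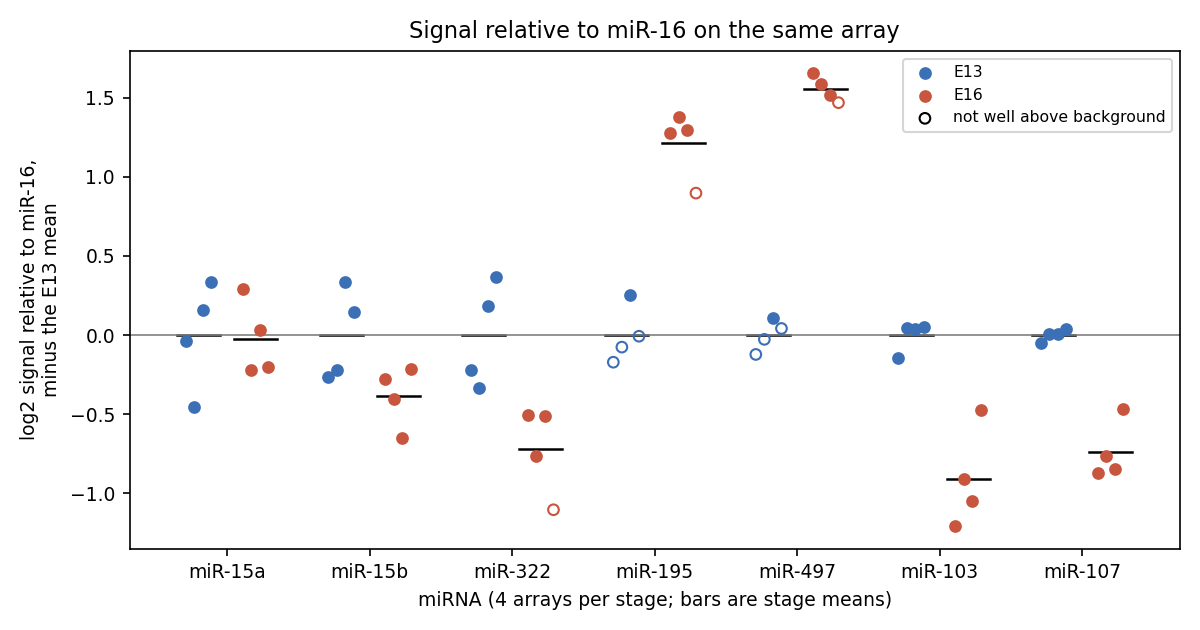
Log2 signal relative to miR-16 on the same array, minus the E13 mean (vertical axis), for 5 members and for miR-103 and miR-107, with 4 points per stage, bars at stage means and open circles where the probe was not well above background. miR-195 and miR-497 lie above 0 on all E16 arrays, miR-322, miR-103 and miR-107 lie below the E13 points, and miR-15a overlaps fully.

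miR-103 and miR-107, paralogs that arise from introns of pantothenate kinase genes, carry the same letters shifted by 1 base and are often grouped with this family.
miR-103: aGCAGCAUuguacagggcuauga
miR-107: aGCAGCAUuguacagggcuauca
miR-103 had log2 scaled signals of 0.73, 0.82, 0.84 and 0.76 at E13 and of 0.19, 0.26, 0.19 and 0.16 at E16. The stages were well separated, and the log2 difference was -0.59 (SE 0.13, limma adjusted p = 0.0055). miR-107 fell by 0.42 on the log2 scale (SE 0.14, limma adjusted p = 0.047), with no overlap either. Relative to miR-16 the differences were -0.91 for miR-103 and -0.74 for miR-107 (limma adjusted p = 0.0025 and 0.0024). Relative to miR-15b they were -0.52 and -0.35 and did not pass (limma adjusted p = 0.089 and 0.20). The medians over all miRNAs were -0.40 as scaled, -0.72 relative to miR-16 and -0.33 relative to miR-15b, so miR-107 lay close to each. As scaled, 26.1% of miRNAs were called lower and 38.6% had no overlap of the stages. Relative to miR-16, 52.6% were called lower.

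Across the 8 arrays the cluster partners of the bright members ranked 11 to 23 among 74 miRNAs in likeness. Likeness was measured as the root mean square difference of log2 scaled signals, each centred on its own mean, over 8 arrays and 74 miRNAs detected on all of them. The nearest to miR-15a were miR-30e (0.11), miR-106b (0.16) and miR-181a-1* (0.17), and miR-16 ranked 11 (0.25) and miR-15b 15 (0.30). The nearest to miR-15b were miR-23b (0.13), miR-151-5p (0.15) and miR-24 (0.17), with miR-16 at rank 23. The nearest to miR-16 were miR-26a (0.14), miR-30a (0.17) and miR-23b (0.18), with miR-15a at rank 13 and miR-15b at rank 17. These ranks are a description, since all miRNAs share the arrays, their depth and their scaling. Nearly all of the 74 lay outside the family, so a nearest miRNA outside it was likely beforehand.

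The calls of the bright members, and the direction of miR-15b and miR-322, depended on the scaling. With the 75th percentile taken over all mouse probes, most of them dim, the median of all miRNAs moved from -0.40 to 0.42, and miR-15a (1.12), miR-15b (0.75) and miR-16 (1.14) were then called higher at E16. That scaling gave 47 higher and 16 lower calls in place of 11 and 40. Quantile normalization gave 20 higher and 27 lower calls and normexp gave 19 and 29, and neither called miR-15a, miR-15b, miR-16 or miR-322. miR-195 and miR-497 were higher at E16 under each scaling that gave them a value.

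**Figure D5:**
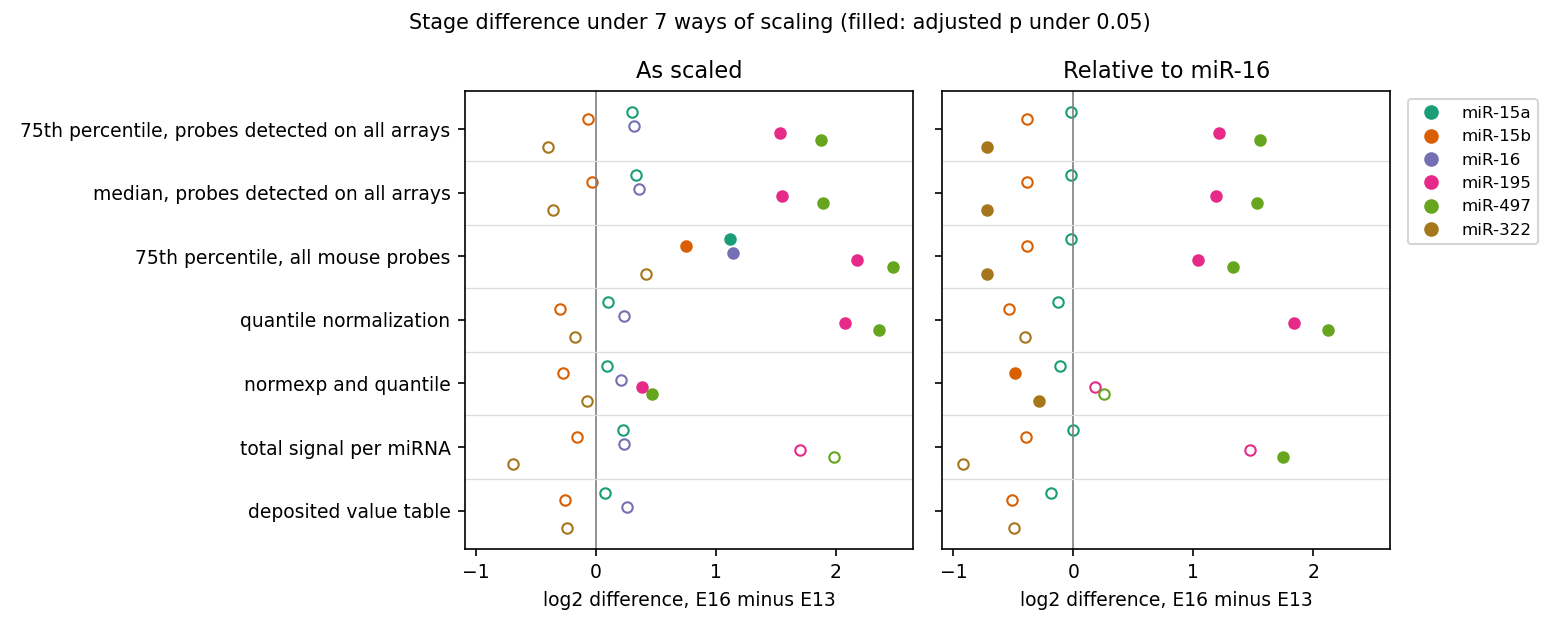
Log2 difference between the stages (horizontal axis, E16 minus E13) of 6 members under 7 ways of obtaining and scaling the signal (rows), as scaled on the left and relative to miR-16 on the right, filled where the limma adjusted p was under 0.05. The points of miR-15a, miR-15b, miR-16 and miR-322 reach up to 1.14 on the left when the percentile covers all mouse probes, miR-195 and miR-497 stay above 0, and on the right miR-322 stays below 0 in every row.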

How the data were processed

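Per the labels' protocols, total RNA of FACS-isolated basal progenitors was extracted with a mirVana kit and labelled with cyanine-3 for 1-colour Agilent miRNA arrays. Per the file headers, the authors made the deposited scanner intensity files, 1 per array, with Agilent Feature Extraction 10.7.3.1 on mm9. The processed intensity is background-subtracted and not scaled between arrays. The authors' deposited value table holds log2 values, ranks spots as the processed signal does on each array (Spearman 1, median 6.90 in each column) and was read as quantile-normalized. The sources used here do not give how it was computed. The deposited files also hold other columns, flags of 0 or 1, per the file headers.

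Outlier spots (1.91% to 3.87% per array) were left out, none was saturated, and the other spots of each probe were averaged. A probe was well above background where a share of at least 0.5 of its spots was. Signals were divided by the 75th percentile over the 126 probes detected on all 8 arrays, floored at percentile 1 of detected probes (log2 -5.96) and put on the log2 scale. The probe with the highest mean stood for its miRNA. The 153 miRNAs detected on at least 4 arrays were fitted with limma 3.58.1 in R 4.3.3 (lmFit, eBayes, 2-sided, Benjamini-Hochberg), with no covariate. For pairs, the log2 value of miR-16, miR-15a or miR-15b was subtracted on each array. The fit was tested on simulated data.

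Named were all 7 members, the other arms of their hairpins, their chromosome X neighbours, miR-103, miR-107, the cell type markers, and the 3 miRNAs most like each member detected on all 8 arrays. Members and lists were chosen with earlier results of these data known. The number of arrays limits the precision. Replicate numbers did not pair the stages. Alternatives covered scaling, background, filter, floor, probe choice, slide, replicate block and each array left out.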

Additional observations from a re-analysis of the deposited data

Results flagged for a closer look

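In groups of 4 arrays, 23 sets of member values were tested for an array far from the other 3, and chance flags about 1 in 20 such groups. miR-195 on E13 replicate 3 had a log2 scaled signal of -5.62 with the other 3 arrays at the floor, miR-497 on the same array had -5.81 and miR-503 -5.24, again with the others at the floor. With 3 values tied at the floor any value above it stands apart, so the chance rate does not apply to these 3. That array detected more miRNAs than any other, 206. miR-195 on E16 replicate 4 had -5.14 against -4.13 to -3.99 on the other E16 arrays, and that array detected the fewest, 76.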

How the results depend on the processing

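Of 22 alternatives, 18 called 2 or 3 members, against 2 in the report. The 18 include the fit within slide 3, whose single E16 array allows no test. Its values were positive for miR-195 (0.65) and miR-497 (1.27). They were negative for miR-15a (-0.57), miR-15b (-0.58), miR-16 (-0.12) and miR-322 (-1.50). The count moved to 5 when the percentile covered all mouse probes and to 0 with the scanner's total signal, with the deposited value table and with the filter asking for detection on all 8 arrays. The last 2 give no value for miR-195 and miR-497. All tested miRNAs called were 51, against 24 with the deposited table, 19 with that filter and 102 within slide 3. Relative to miR-16, 3 members were called, against 1 with the total signal, 0 with the deposited table and 0 with the filter. Leaving out 1 array gave 2 to 3 members, 38 to 71 miRNAs and 2 to 3 members relative to miR-16.

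Signs turned for 4 members. miR-15b became 0.75 with that percentile, 0.092 within slide 2, 0.048 without E13 replicate 3 and 0.036 without E16 replicate 4, in a range from -0.20 to 0.048 with 1 array left out. miR-322 became 0.42 with that percentile and 0.017 within slide 2. Within slide 3, miR-15a became -0.57 and miR-16 -0.12. Relative to miR-16, miR-15a became 0.0054 with the mean of all probes, 0.15 within slide 2, and 0.030, 0.088, 0.043 and 0.035 without E13 replicate 3, E13 replicate 4, E16 replicate 2 and E16 replicate 4, in a range from -0.18 to 0.088. Relative to miR-15b, miR-322 became 0.13 with quantile normalization, 0.20 with normexp and 0.016 with the deposited table. The cause was not tested. The references miR-15a and miR-15b were chosen after seeing the data.

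With the replicate block, 2 members, 45 miRNAs and, relative to miR-16, 3 members were called. Deviations of same-numbered arrays correlated at -0.10, 0.071, 0.27 and -0.15, so the numbers are not a pairing, and not every array correlated best with its own number. The dim signals of miR-195, miR-497 and miR-503, near or below background on most E13 arrays, set the limit on their sizes.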
